A study of Mus musculus with 16 samples.

Results

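The heat shock chaperone genes described here are 10 mouse genes, namely Hspa1a, Hspa1b, Hspa8, Hspa2 and Hspa5 of the HSP70 family, the cochaperones Hsph1 and Dnajb1, Hsp90aa1, the small heat shock protein Hspb1 and the mitochondrial chaperonin Hspd1. They were taken as a named list, and every probe set annotated to them on the array was used, 24 of 45101 probe sets in all. Of these 24, 22 passed the filter on low intensity, and all 10 genes were among the 12336 genes tested, each through its probe set with the highest mean.

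RNA of mouse fetal gonads, taken at E12.5 or E14.5 (days of embryonic development), was hybridised to 16 Affymetrix arrays. There were 8 groups of 2 arrays: wild-type ovary, Wnt4 knock-out ovary, wild-type testis and Wnt4 knock-out testis, each at both stages. Wnt4 encodes a secreted signalling protein with a known part in ovary development. Per the labels, gonads of every group were frozen until each embryo had been genotyped by PCR, and embryos were chosen at each stage by their morphology. The labels name the knock-out without its allele or strain. Arrays of a group are called biological replicates there with no word on whether embryos were pooled, so the p-values cover the spread among these arrays, which may be technical. Male samples carry ovary in their titles and testis in their source, and are called testis here.

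Chaperones of the HSP70 family bind exposed hydrophobic stretches of unfolded proteins and release them in cycles of ATP hydrolysis. J-domain proteins such as Dnajb1 deliver the client and start the hydrolysis, Hsph1 exchanges the nucleotide, HSP90 proteins take over late folding steps, and small heat shock proteins hold unfolded clients without using ATP. Heat shock factors, of which HSF1 is the best known, bind arrays of the short unit GAA in alternating orientation and switch on Hspa1a, Hspa1b, Dnajb1, Hsph1 and Hspb1 when proteins unfold, whereas Hspa8 is made constantly in most cells. Hspa5 (BiP) serves the endoplasmic reticulum under the unfolded protein response, and Hspa2 is best known from meiotic and later male germ cells of the adult testis.

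Promoter windows from 250 bases before to 50 bases after a start site (RefSeq, GRCm38.p6) held entries for 8 of the 10 genes, and Hspa8 and Hsp90aa1 had none. A heat shock element was searched as GAANNTTC or TTCNNGAA, each of which is its own reverse complement. It occurred in 15.1% of 32851 promoter windows. Of the 8 genes, which had 11 windows, 5 held it in at least 1 window, Hspa1a, Hspa1b, Hspb1, Hspd1 and Hsph1. The Hspd1 window of the start site at 55088243 held no match. The longer form of 3 units, in which NNGAA follows the first sequence or NNTTC the second, occurred in 0.603% of windows. Among the members, Hspd1 and Hsph1 held it in at least 1 window. By construction every longer match holds overlapping short ones. Such a match is a description of the letters and was not tested for binding.

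Hspa1a and Hspa1b lie on the minus strand of chromosome 17 with start sites 12918 bases apart. Their first 250 upstream bases are shown because these genes moved together in the results below and differ at 3 positions (98.8% identity). Hspa1a is read from chr17:34972157-34972406 and Hspa1b from chr17:34959239-34959488, both on the minus strand, 5' to 3', with the heat shock element in capitals at position -104 from the start site in both.
Hspa1a: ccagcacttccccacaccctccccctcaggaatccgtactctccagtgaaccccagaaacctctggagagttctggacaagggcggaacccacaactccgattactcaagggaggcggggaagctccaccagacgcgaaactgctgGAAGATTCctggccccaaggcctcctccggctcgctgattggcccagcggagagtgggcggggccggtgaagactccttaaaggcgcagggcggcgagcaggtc
Hspa1b: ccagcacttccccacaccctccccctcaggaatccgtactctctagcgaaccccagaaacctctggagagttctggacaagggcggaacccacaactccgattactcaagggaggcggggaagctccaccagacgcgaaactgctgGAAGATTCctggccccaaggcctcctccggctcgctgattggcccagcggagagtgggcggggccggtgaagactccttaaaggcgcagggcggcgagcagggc

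Stretches of 60 bases around the elements of the other members are shown to compare their spacing. Hspb1 (chr5:135887789-135887848, plus strand) holds separate matches, the first at -117, Hspd1 (chr1:55088033-55088092, minus strand) a run of 3 overlapping matches from -144, and Hsph1 (chr5:149636337-149636396, minus strand) a match at -33. The longer form of Hsph1 lies in the transcribed bases beyond this stretch. Positions count from the start sites at 55087932 for Hspd1 and 149636336 for Hsph1. From the Hsph1 start site at 149636315 the same match lies at -54. Capitals mark the matches.
Hspb1: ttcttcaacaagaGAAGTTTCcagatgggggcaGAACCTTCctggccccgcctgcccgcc
Hspd1: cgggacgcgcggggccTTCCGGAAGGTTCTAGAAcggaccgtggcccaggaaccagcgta
Hsph1: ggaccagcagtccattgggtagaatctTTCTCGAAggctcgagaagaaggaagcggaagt

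Hspa5 has another known control element, the endoplasmic reticulum stress element, searched on both strands as CCAAT and CCACG at their usual spacing. It occurred in 0.119% of windows and, among the members, in Hspa5 at -65 (chr2:34772010-34772069, plus strand), shown in capitals.
Hspa5: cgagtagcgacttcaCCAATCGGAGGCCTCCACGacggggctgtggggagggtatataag

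The mean intensity of an array was 272.4 to 287.6, and the number of arrays limits the precision. Wnt4, read as a check of the labels, was lower in knock-out than wild-type arrays without overlap in each of the 4 sex and stage pairs. In the ovary at E12.5 the gap was small, with knock-out arrays at 839 and 520.2 and wild-type arrays at 844 and 1822, and where the deletion lies relative to the probes is not given. Xist read 3654 to 5805 in ovary and 5.92 to 1087 in testis arrays. RNA of the other sex, estimated from Y-linked genes or Xist, made up over 10% in 5 arrays. These were wild-type ovary E12.5 replicate 1 (18.0%), knock-out ovary E12.5 replicate 2 (17.8%), wild-type ovary E14.5 replicate 2 (19.9%), wild-type testis E14.5 replicate 2 (22.7%) and knock-out testis E14.5 replicate 2 (16.4%). For actin and Gapdh the ratio of 3' to 5' signal, a sign of RNA integrity, was 1.76 to 2.27 in 3 arrays of E12.5 (wild-type ovary replicate 2, knock-out ovary replicate 1 and knock-out testis replicate 1) and at most 1.36 elsewhere. The wild-type testis arrays of E12.5 were almost alike (SD of log2 differences 0.14, against 0.33 to 0.59 in the other groups).

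Between E12.5 and E14.5 6 of the 10 heat shock chaperone genes rose in the testis, the inducible HSP70 genes Hspa1a and Hspa1b by the most, then Hspb1, Hsph1, Hsp90aa1 and Hspd1, where 10.4% of all genes were called higher. None of the 10 fell in the testis over this interval. In the ovary no member passed the test between the stages, where 23.3% of all genes were called. When every probe set was tested, 4 members passed through at least 1 of their sets, where 16.7% of all probe sets were called. At E14.5 Hspa1a and Hspa1b were 4.25-fold and 3.97-fold higher in testis than in ovary, where 7.44% of all genes were called higher. No member passed the test between knock-out and wild type in any of the 4 sex and stage pairs, where 0.00811% to 0.543% of all genes were called. Differences are log2 differences of intensity + 4, folds are on that scale, which understates changes of dim probe sets such as that of Hspa1a, and a call is a limma adjusted p under 0.05.

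Hspa1a read 74.96 and 113.1 in wild-type and 87.14 and 87.0 in knock-out testis at E14.5. At E12.5 its testis arrays read 8.80 and 5.76 in wild type and 19.2 and 19.6 in knock-out. In the ovary it read 11.45 and 8.99 (wild type) and 30.45 and 16.2 (knock-out) at E12.5, then 18.1 and 25.0 (wild type) and 11.5 and 19.7 (knock-out) at E14.5. All 4 testis arrays of E14.5 were above all 12 others, and the ovary arrays of the stages overlapped. Testis means over both genotypes were 90.6 ± 16.1 (SD, n = 4) at E14.5 and 13.3 ± 7.10 (n = 4) at E12.5. The stage difference in testis was 2.53 (SE 0.21), or 5.79-fold (limma adjusted p = 7.725e-06).

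Hspa1b, whose protein is almost the same as that of Hspa1a, was also highest in testis at E14.5. In testis at E14.5 its tested probe set read 1051 and 1383 in wild type and 1333 and 1301 in knock-out. The E12.5 testis arrays read 126 and 147 in wild type and 318 and 403 in knock-out. In the ovary it read 177 and 253 (wild type) and 564 and 305 (knock-out) at E12.5, and 224 and 469 (wild type) and 227 and 410 (knock-out) at E14.5. The E14.5 testis arrays again stood above all others, by a gap from 564 to 1051. The testis mean was 1267 ± 148 (SD, n = 4) at E14.5 and 249 ± 134 (n = 4) at E12.5, a difference of 2.49 (SE 0.27) or 5.61-fold (limma adjusted p = 3.662e-05).

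Ordered by mean, Hspa1b was lowest in wild-type testis E12.5 (137), then in wild-type ovary E12.5 (215), knock-out ovary E14.5 (319), wild-type ovary E14.5 (346), knock-out testis E12.5 (361), knock-out ovary E12.5 (435), wild-type testis E14.5 (1217) and knock-out testis E14.5 (1317). The 4 groups from 319 to 435 overlapped with their neighbours in this order, as did both E14.5 testis groups. Wild-type testis E12.5 lay below wild-type ovary E12.5 without overlap, and that difference of -0.62 did not pass the test (limma adjusted p = 0.401).

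**Figure D1:**
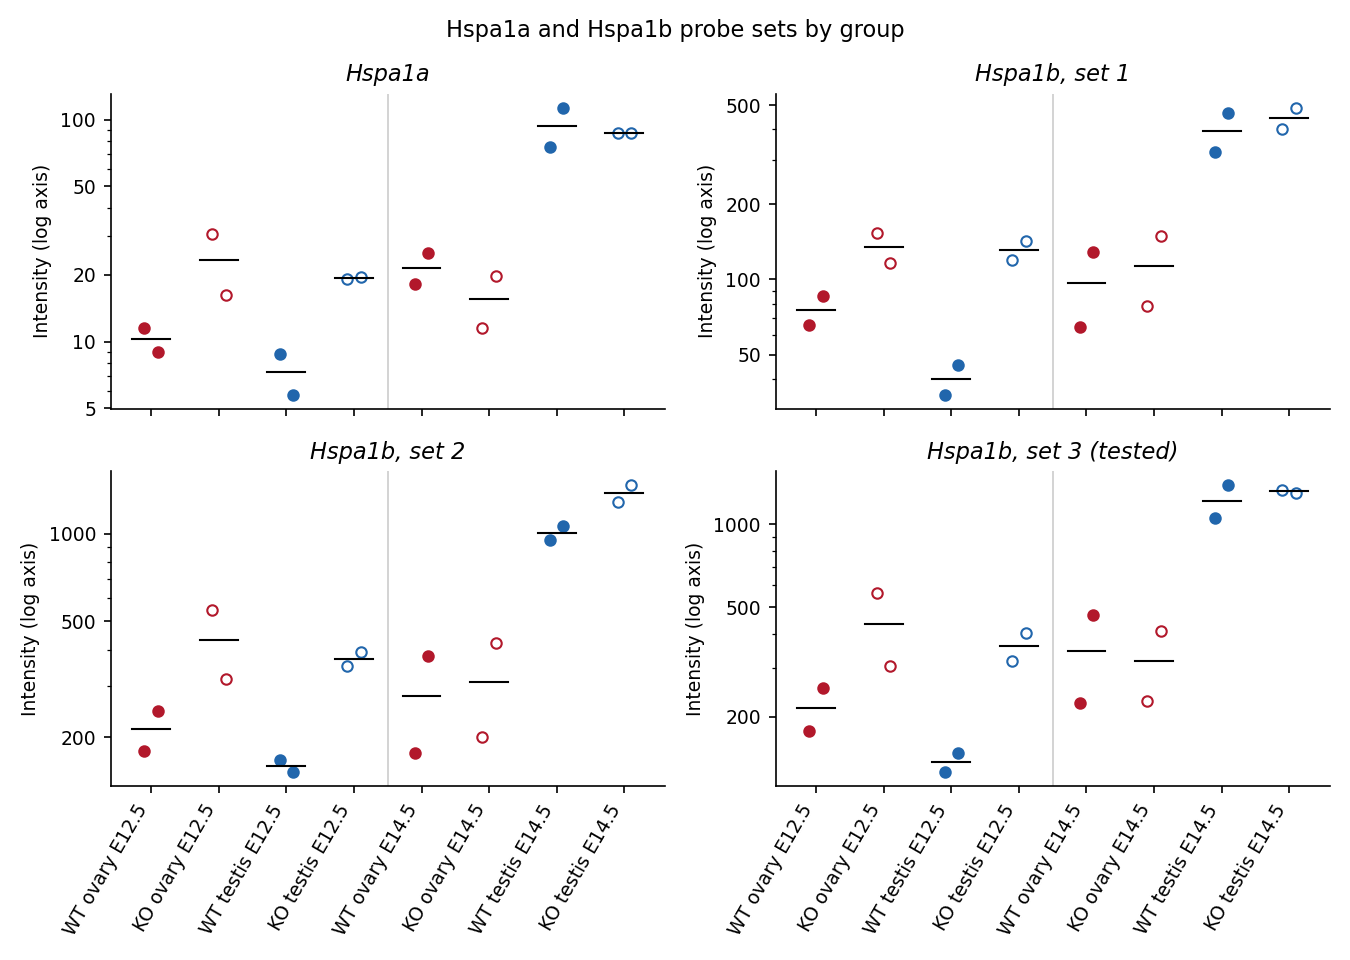
Deposited intensity (log axis) of the Hspa1a probe set and the 3 Hspa1b probe sets in the 8 groups; points are arrays (red ovary, blue testis, filled wild type, open knock-out), bars are group means of 2 arrays, and the grey line separates the stages. In each panel the 4 testis arrays of E14.5 lie above the 12 other arrays.

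In the ovary neither gene passed the test between the stages. The difference was 0.19 for Hspa1a (95% interval -0.27 to 0.65, adjusted p = 0.546) and 0.08 for Hspa1b (-0.49 to 0.66, adjusted p = 0.843). The difference between the stage changes, ovary minus testis, was -2.35 for Hspa1a (SE 0.30, adjusted p = 0.00191) and -2.41 for Hspa1b (SE 0.38, adjusted p = 0.00423). Without the 3 E12.5 arrays of high 3'/5' ratio Hspa1a kept its call (-2.21, adjusted p = 0.0216) and Hspa1b did not (-1.97, adjusted p = 0.0521). The stage and sex comparisons share arrays, so their values are given side by side and are not independent.

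At E14.5 Hspa1a was 90.6 ± 16.1 in testis and 18.6 ± 5.58 in ovary (SD, n = 4 each), a log2 difference of 2.09 (SE 0.21, 4.25-fold, limma adjusted p = 4.105e-05). Hspa1b was 1267 ± 148 and 332 ± 126 (n = 4 each), a difference of 1.99 (SE 0.27, 3.97-fold, adjusted p = 0.000257). At E12.5 the same comparison gave -0.26 for Hspa1a (adjusted p = 0.430) and -0.42 for Hspa1b (adjusted p = 0.298), with overlapping arrays. The sex difference of the pair was therefore seen at the later stage, and its change between the stages is the test of the preceding paragraph.

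Both genotypes showed the difference on their own. The stage difference of Hspa1a in testis was 3.10 in wild type (limma adjusted p = 7.077e-05) and 1.96 in knock-out (adjusted p = 0.00208), and that of Hspa1b was 3.11 (adjusted p = 0.000265) and 1.87 (adjusted p = 0.0123). At E14.5 testis exceeded ovary by 1.92 in wild type and 2.25 in knock-out for Hspa1a, and by 1.88 and 2.09 for Hspa1b, all called. In wild-type arrays 6.73% of all genes were called higher between testis stages and 2.26% higher in testis at E14.5, and in knock-out arrays 2.76% and 3.84%. The smaller stage difference in knock-out testis, -1.14 for Hspa1a and -1.24 for Hspa1b relative to wild type, did not pass the test (adjusted p = 0.984 for each, with 0.00811% of all genes called).

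All 3 Hspa1b probe sets gave like differences between testis stages (2.45, 2.25 and 2.49) and between the sexes at E14.5 (2.02, 2.08 and 1.99), each called over 25620 probe sets. In that fit 6.35% of probe sets were called higher between testis stages and 3.92% higher in testis at E14.5. Because the genes are almost identical in sequence, their probe sets may each read RNA of both, and no order between the genes was drawn. Without the E14.5 arrays holding over 10% RNA of the other sex, the sex difference at E14.5 was 2.04 for Hspa1a (adjusted p = 0.00155) and 2.16 for Hspa1b (adjusted p = 0.00292).

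In the ovary at E14.5 the higher of each pair of Hspa1b values, 469 in wild type and 410 in knock-out, came from replicate 2. RNA of testis was estimated at 19.9% in that wild-type array and at 0.43% in that knock-out array. The summed intensity of 5 fetal Leydig cell markers, all tested, was 3412 and 740 in these arrays against 158 and 517 in the other pair. The part of testis RNA in these values was not tested.

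Cell types of the testis changed over the same interval, and their part in the Hspa1a and Hspa1b difference was not tested. In bulk gonads fewer cells of a type and less RNA per cell cannot be told apart. Between testis stages 10.4% of all genes were called higher and 7.65% lower, and these shares stand beside each count that follows. The sum of the fetal Leydig markers, which include the steroid enzymes Cyp17a1 and Cyp11a1, was 336 to 1495 in testis at E12.5 and 7061 to 12650 at E14.5, and 158 to 3412 in ovary at E14.5, with 4 of 5 called higher between testis stages. The sum of 14 germ cell markers was 5522 to 9576 and then 10600 to 14410 in testis, with 7 called higher and 1 lower. The 10 Sertoli cell markers summed to 4637 to 4988 and 5922 to 6945, with 2 called higher. The erythroid sum was 36110 to 43970 and then 17950 to 24710 in testis, with 4 of 7 tested markers called lower. None of these markers was listed at 0 on any array.

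Hsph1, the nucleotide exchange factor of the HSP70 cycle, read 1710, 1507, 1698 and 1415 in testis at E14.5 and 783, 814, 1024 and 1047 at E12.5, with no overlap. Its ovary arrays lay between 942 and 1302 at E12.5 and between 1020 and 1438 at E14.5. The testis difference was 0.79 (SE 0.13, 1.73-fold, limma adjusted p = 0.00121) and the ovary difference 0.15 (adjusted p = 0.442). The difference between the stage changes was -0.65 (SE 0.19, adjusted p = 0.0445), a call lost when any 1 of 13 of the 16 arrays was left out (adjusted p up to 0.105) and kept without wild-type ovary E12.5 replicate 1, knock-out ovary E12.5 replicate 2 or wild-type ovary E14.5 replicate 2. A second Hsph1 probe set gave 0.25, the opposite sign (adjusted p = 0.826 over probe sets), and 1.18 between testis stages (adjusted p = 0.106).

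Dnajb1, the J-domain partner of inducible HSP70, read 1262, 1300, 1274 and 1331 in testis at E14.5 and 1039, 995, 1096 and 1241 at E12.5. The stages did not overlap, yet the difference of 0.24 (SE 0.11) did not pass the test (limma adjusted p = 0.148). In the ovary it read 981 to 1516 at E12.5 and 1365 to 1441 at E14.5 (0.22, adjusted p = 0.160). At E14.5 every testis array lay below every ovary array, by a log2 difference of -0.14 (adjusted p = 0.484), the opposite side from Hspa1a and Hspa1b.

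Hsp90aa1, the inducible cytosolic HSP90, read 7164, 9757, 7121 and 9608 in testis at E14.5 and 5650, 5452, 5963 and 8144 at E12.5. The stages overlapped through the last of these values. The difference of 0.42 (SE 0.13, 1.34-fold) passed narrowly (limma adjusted p = 0.0418). It did not pass when any 1 of 7 arrays was left out. Those were wild-type testis E12.5 replicates 1 (adjusted p = 0.101) and 2 (0.124), knock-out testis E12.5 replicate 1 (0.190), wild-type testis E14.5 replicate 2 (0.156), knock-out testis E14.5 replicate 2 (0.169) and knock-out ovary E14.5 replicates 1 (0.0562) and 2 (0.0563). Without the E14.5 arrays holding over 10% RNA of the other sex it was 0.20 (adjusted p = 0.392). The higher array of each E14.5 testis pair, 9757 and 9608, was the array with 22.7% and 16.4% of such RNA.

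Hspb1, a small heat shock protein that also binds actin, was the third in size of change. In testis it read 731, 344, 851 and 521 at E14.5 and 152, 159, 209 and 255 at E12.5, with no overlap although the E14.5 arrays differed widely among themselves. The difference was 1.59 (SE 0.31, 3.01-fold, limma adjusted p = 0.00326). In the ovary the E12.5 arrays read 165, 354, 504 and 279 and the E14.5 arrays 658, 435, 376 and 570, an overlapping difference of 0.72 (95% interval 0.06 to 1.37, adjusted p = 0.103). The difference between the stage changes, -0.87, did not pass the test (adjusted p = 0.182), so a sex-dependent change was not shown for this gene.

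A second Hspb1 probe set was called between the stages in both sexes, at 1.87 in testis (limma adjusted p = 0.000523) and 0.92 in ovary (adjusted p = 0.0242), with p-values adjusted over 25620 probe sets. For this gene the choice of probe set decides the ovary call. Of all probe sets 8.52% were called higher between ovary stages in that fit.

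Hspd1, the HSP60 chaperonin of the mitochondrial matrix, read 5808, 5521, 5870 and 5593 in testis at E14.5 and 4273, 4011, 4484 and 4986 at E12.5. The stages did not overlap, and the difference of 0.36 (SE 0.09, 1.29-fold) passed (limma adjusted p = 0.0122). It did not pass without wild-type testis E12.5 replicate 2 (0.34, adjusted p = 0.0623) or knock-out testis E12.5 replicate 1 (0.33, adjusted p = 0.0565). Its ovary arrays lay between 4463 and 5588 across both stages. The difference between the stage changes, -0.37, did not pass (adjusted p = 0.0664).

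Hspa8 and Hspa5 passed no test through any probe set. The tested sets showed small stage differences. Hspa8 lay between 10080 and 13210 across all 16 arrays, and its stage difference was 0.11 in testis (95% interval -0.06 to 0.28) and -0.01 in ovary (-0.18 to 0.16). Hspa5 lay between 6599 and 9787, with stage differences of 0.18 in testis (-0.01 to 0.36, limma adjusted p = 0.167) and 0.11 in ovary (-0.08 to 0.29). Neither gene was called in any of the 10 comparisons. Other sets of both genes spread more widely. A low-intensity Hspa8 set read 171, 177, 148 and 104 in testis at E12.5, then 73.6, 44.7, 91.8 and 66.2 at E14.5, without overlap and in the opposite direction (-1.09, limma adjusted p = 0.128 over probe sets). Another Hspa8 set lay between 5406 and 12920 and an Hspa5 set between 3553 and 7231, each lowest in knock-out ovary E12.5 replicate 1, the array with the 3'/5' ratio of 2.27. That Hspa5 set gave 0.38 between ovary stages (adjusted p = 0.0594).

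Hspa2, the HSP70 member best known from spermatogenic cells, showed no call in any comparison. It read 65.3 and 48.6 (wild type) and 82.2 and 104.9 (knock-out) in testis at E12.5, and 129 and 115 (wild type) and 150.1 and 87.3 (knock-out) at E14.5. In the ovary it read 75.1 and 75.7 (wild type) and 58.97 and 123 (knock-out) at E12.5, then 78.4 and 116 (wild type) and 95.3 and 201 (knock-out) at E14.5. The sexes overlapped fully at E14.5, with a difference of 0.04 (95% interval -0.58 to 0.66). Beside it, 23 of 23 meiotic prophase genes rose in the ovary between the stages (median 4.14), where 9.43% of all genes did. At E14.5 21 of 23 were lower in testis than ovary, where 5.48% of all genes were. The ovary stage difference of Hspa2 was 0.50 (-0.12 to 1.12, limma adjusted p = 0.217).

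**Figure D2:**
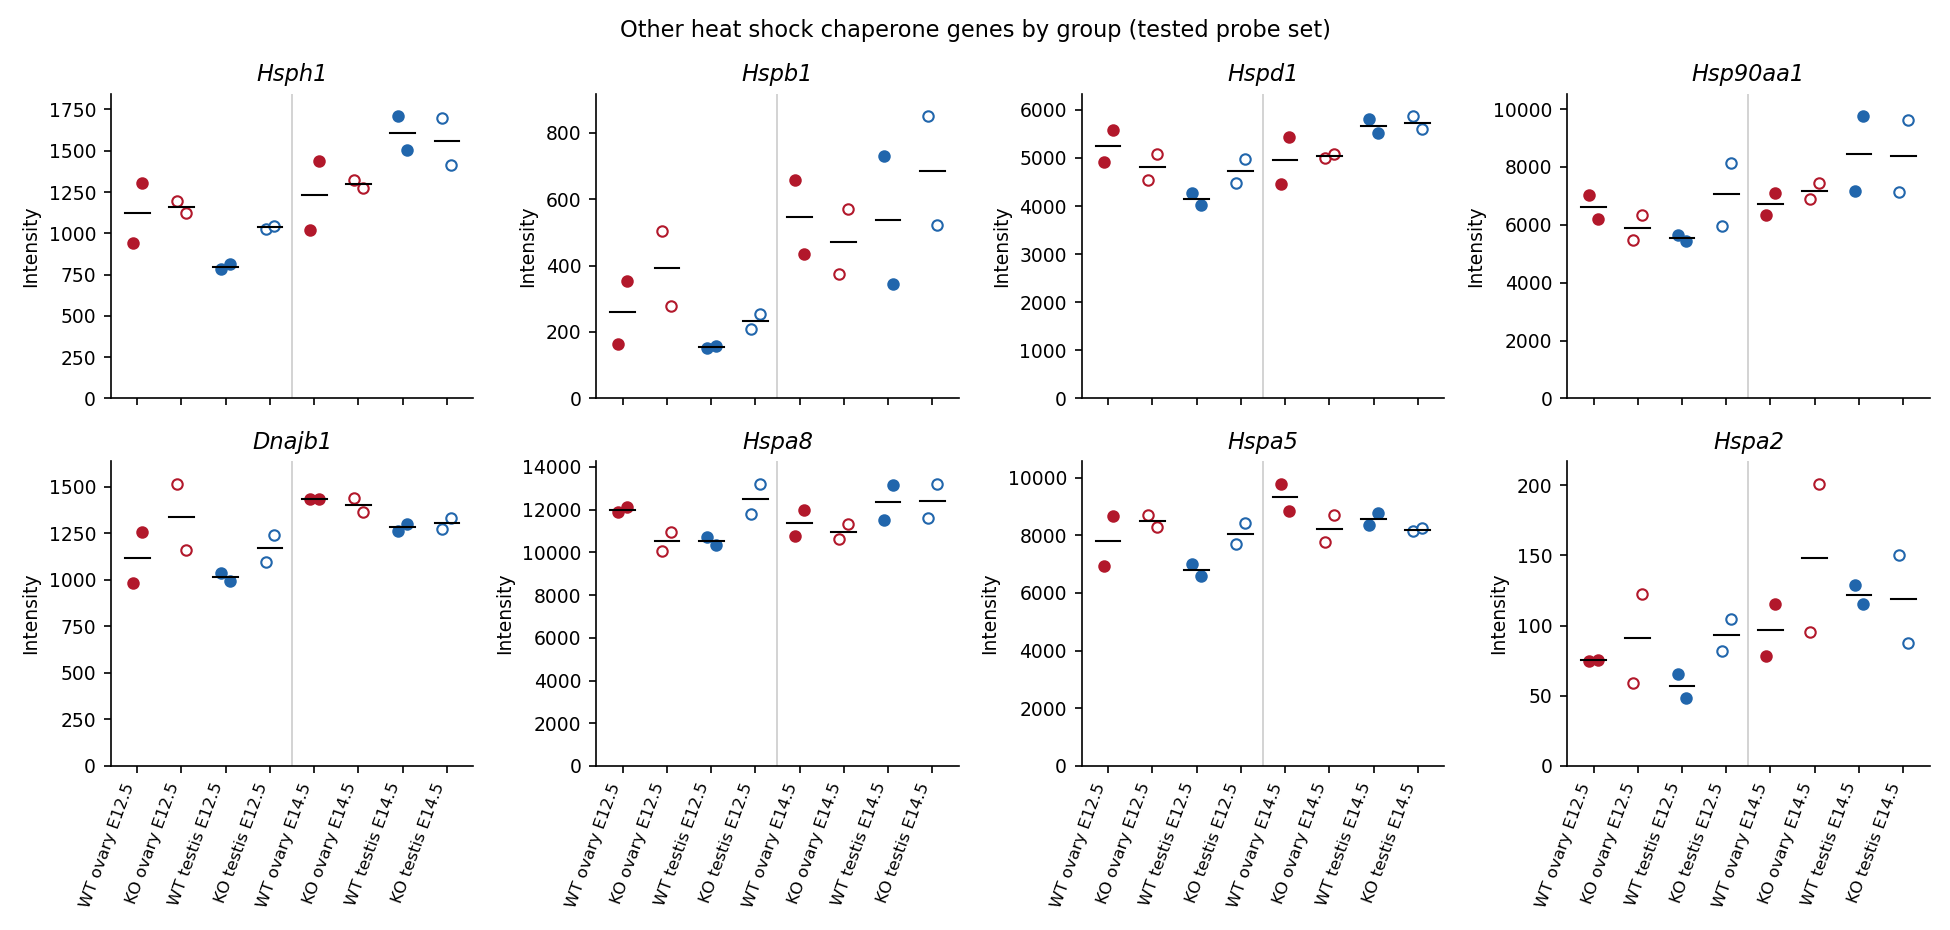
Deposited intensity (linear axis from 0) of the tested probe sets of the other 8 genes in the 8 groups, with points, colours and bars as for Hspa1a. Hsph1, Hspb1 and Hspd1 are higher in testis at E14.5 than at E12.5 without overlap, while Hspa8 stays between 10080 and 13210.

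Counted over the list, 6 of 10 members were called higher and none lower between testis stages, where 18% of all genes tested were called and 10.4% were called higher. Arrays of the stages did not overlap for 6 members (Hspa1a, Hspa1b, Hsph1, Dnajb1, Hspb1 and Hspd1, all higher), against 13.9% of all genes in that direction. The members' median difference was 0.55 and that of all genes 0.02, and all 10 members had a positive value, beside 52% of all genes. Hspa1a and Hspa1b rank among the members only by size here, since the list was chosen with earlier results of these arrays known.

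Between ovary stages none of 10 members was called, while 23.3% of all genes were. In limma 1 member (Hspb1) had an unadjusted p under 0.05, ranking 4203 of 12336 genes by p. A fit on the mean of a gene's probe sets called 4, all higher, beside 11.2% of all genes called higher in that fit. The members' median was 0.15 beside -0.07 for all genes, and 8 of 10 values were positive, beside 41.9% of all genes. No member separated the ovary stages without overlap, against 20.6% of all genes.

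Between the sexes at E14.5, 2 of 10 members were called, both higher in testis, beside 12.9% of all genes called and 7.44% called higher. Hspa1a, Hspa1b and Hspd1 were higher and Dnajb1 lower in testis without overlap, where 12.5% of genes were higher and 10.4% lower in that way. At E12.5 no member was called between the sexes (5.5% of all genes were). Hsph1 and Hspb1 had an unadjusted p under 0.05 in limma, ranking 2984 and 3698 of 12336 genes by p, so such a p was common. There 9 of 10 members had a negative log2 difference through the tested sets, while 40.4% of all genes had a positive one. The members' median was -0.17 (-0.08 for all genes). Without wild-type ovary E12.5 replicate 1 this comparison called Hspb1 and Hsph1 lower in testis, beside 17.9% of all genes. Other sets past the intensity filter were higher in testis at E12.5 for Hsph1 (mean log2 8.80 against 8.13 in ovary), Hsp90aa1 (12.40 against 11.49 in 1 set) and Dnajb1 (9.14 against 8.64). Other Hspa1b and Hspb1 sets were lower in testis, and other Hspa5 sets had both signs. None of the 10 separated the sexes at E12.5 without overlap, against 10.4% of all genes. The change of the sex difference between stages was called for 3 of 10 members, Hspa1a, Hspa1b and Hsph1, beside 10.3% of all genes called and 6.57% called lower. Through the tested sets all 10 values were negative (median -0.32, all genes -0.10), while 41.5% of all genes had a positive one. Of the other sets past the intensity filter, those of Hsph1, Hsp90aa1 and Dnajb1 had the opposite sign. In that Dnajb1 set mean log2 went from 8.64 to 9.54 in ovary and from 9.14 to 9.28 in testis. Other Hspa1b and Hspb1 sets stayed negative, and other sets of Hspa8 and Hspa5 had both signs.

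**Figure D3:**
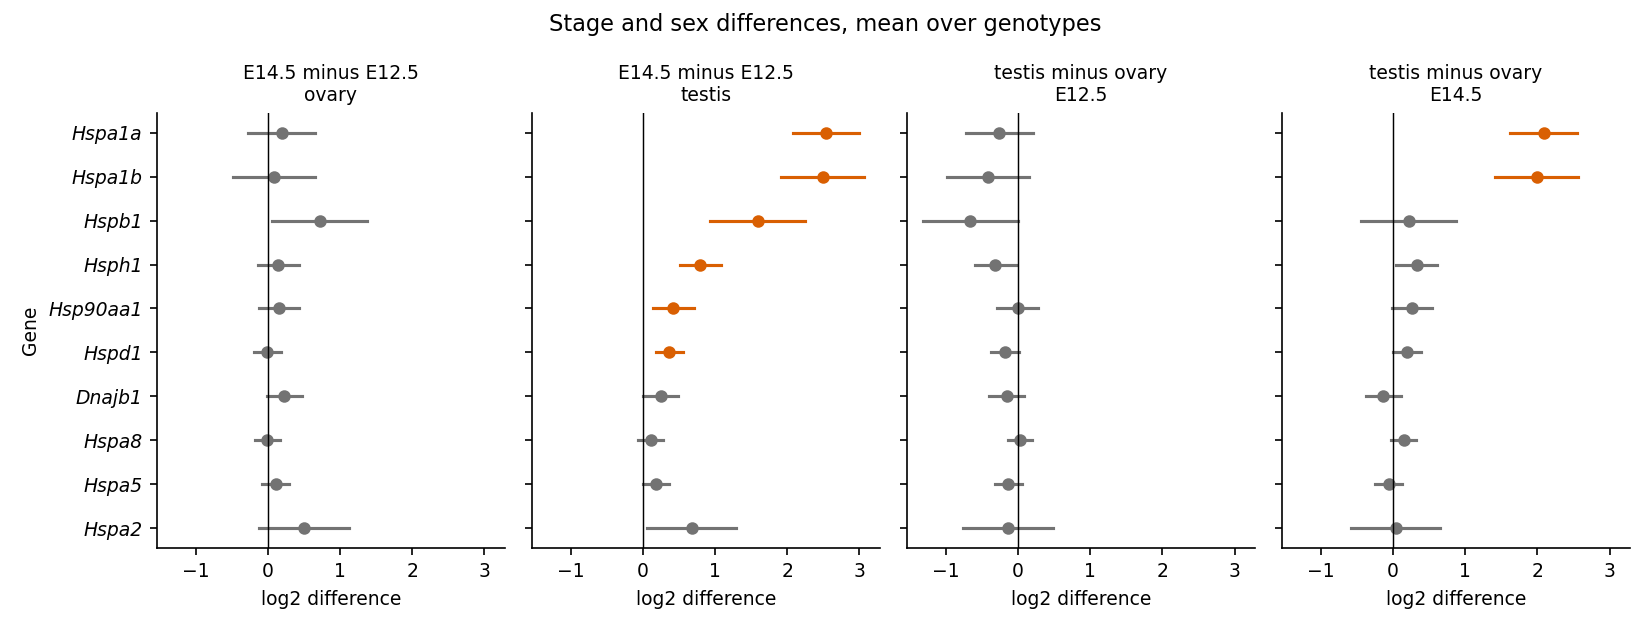
Log2 differences of the 10 genes with 95% intervals in 4 comparisons over both genotypes, 4 arrays against 4; orange marks limma adjusted p under 0.05. The 6 called values between testis stages run from 0.36 for Hspd1 to 2.53 for Hspa1a, the ovary panel has none, and Hspa1a and Hspa1b alone are called between the sexes at E14.5.

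Loss of Wnt4 gave no call for any member. The E12.5 arrays of Hspa1a and Hspa1b were nonetheless higher in knock-out than wild type without overlap in both sexes. In ovary arrays Hspa1b was 564 and 305 without Wnt4, and 177 and 253 with it, a difference of 0.96 (SE 0.38, unadjusted p = 0.0238, limma adjusted p = 0.514). In the testis the knock-out values were 318 and 403 and the wild-type values 126 and 147, a difference of 1.37 (SE 0.38, unadjusted p = 0.00286, adjusted p = 0.194).

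Hspa1a gave 0.90 in the ovary (adjusted p = 0.389) and 1.07 in the testis (adjusted p = 0.209) at E12.5. At E14.5 the differences of the pair lay between -0.40 and 0.13, with overlapping arrays. Over all 4 pairs the knock-out difference was 0.37 for Hspa1a (adjusted p = 0.388) and 0.59 for Hspa1b (adjusted p = 0.199).

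Other readings differed between the same arrays, and some of them are given here. At E12.5 the fetal Leydig sum was 1401 and 701 in knock-out ovary and 195 and 403 in wild-type ovary. In testis it was 717 and 1495 in knock-out and 336 and 396 in wild type. The sum of 8 male germ cell markers was 241.5 and 269.9 in knock-out and 111.5 and 113.8 in wild-type ovary. In testis that sum was 447.5 and 580.2 in knock-out and 234.4 and 265.6 in wild type. Of the 8 markers, 5 had a positive difference in ovary and 7 in testis, beside 54.9% and 63.8% of all genes. The sum of 14 markers of germ cells of either sex was 4939 and 6906 in knock-out and 5627 and 4914 in wild-type ovary. In testis the latter sum was 9576 and 9406 in knock-out and 5805 and 5522 in wild type. The striated muscle sum was 705 and 1539 in knock-out and 177 and 251 in wild-type ovary. It went the other way in testis, with 334.5 and 192 in knock-out and 465 and 482 in wild type. The 3'/5' ratio was 2.27 and 1.35 in knock-out ovary and 1.09 and 1.76 in wild-type ovary, and 1.76 and 1.29 in knock-out testis and 1.12 and 1.13 in wild-type testis. Their part in the Hspa1a and Hspa1b values was not tested. A fit with weights per array called Hspa1b higher in knock-out testis at E12.5, beside 2.2% of all genes.

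In E12.5 testis all 10 members were higher in knock-out than wild type without overlap, and the same held for 41.1% of all genes, while 16.1% were lower without overlap. The wild-type arrays of this pair were the almost alike ones, and their part in these shares was not tested. The members' median there was 0.35 and that of all genes 0.10. No member was called, beside 0.0405% of all genes. In limma 3 (Hspa1a, Hspa1b and Hspa8) had an unadjusted p under 0.05, a looser threshold. By p these ranked 213, 182 and 1291 of 12336 genes, so at least 1291 genes were under it. In E12.5 ovary Hspa1a and Hspa1b were higher and Hspa8 lower without overlap (15.3% and 12.2% of genes). No member was called there, beside 0.292% of genes. Hspa1a and Hspa1b had an unadjusted p under 0.05 in limma, ranking 340 and 570 of 12336 genes by p.

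At E14.5 none of the 10 was called between genotypes in either sex, with 0.543% of genes called in ovary and 0.00811% in testis. None had an unadjusted p under 0.05 in limma. Hspa5 was lower in knock-out without overlap in both, with differences of -0.18 in ovary and -0.06 in testis, beside 18.8% and 9.54% of genes. Over all 4 pairs no member was called (1.43% of genes). Hspa1a and Hspa1b had an unadjusted p under 0.05 in limma, ranking 922 and 457 of 12336 genes by p.

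**Figure D4:**
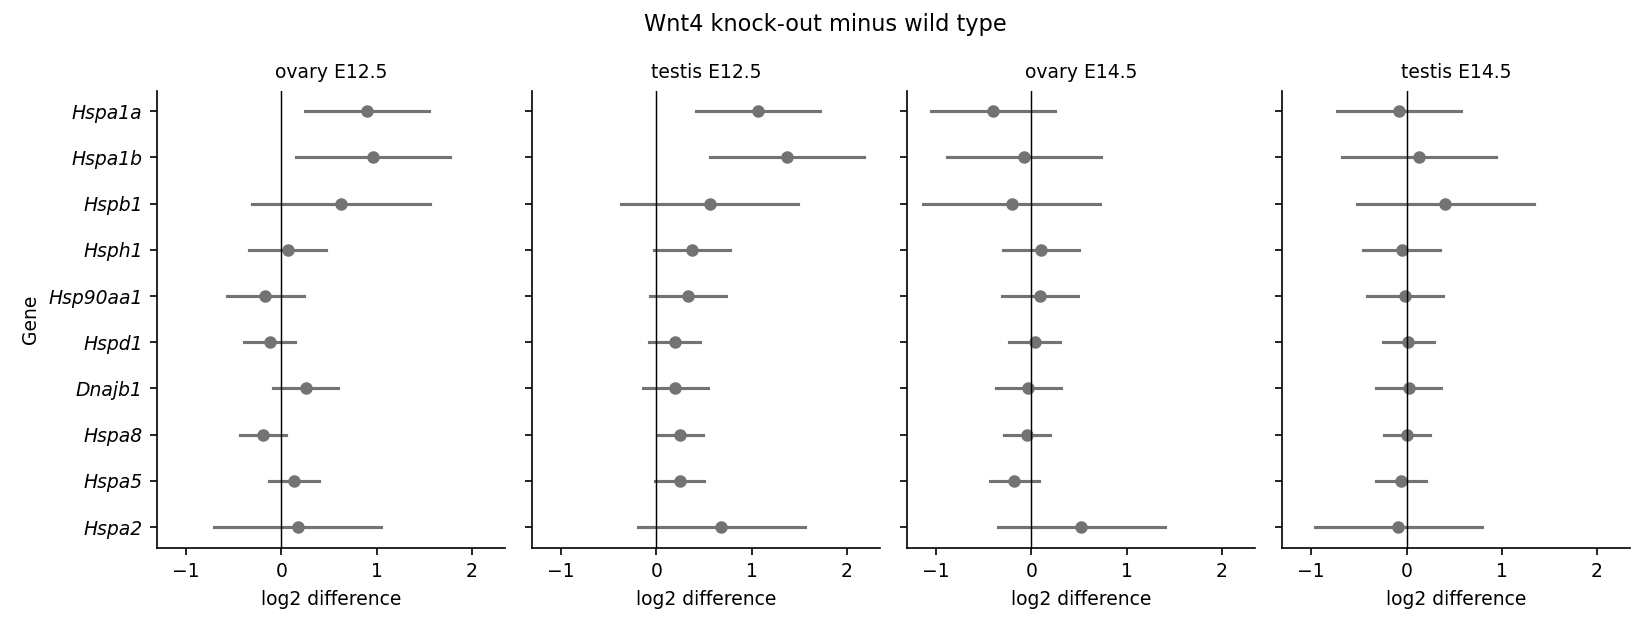
Log2 differences, Wnt4 knock-out minus wild type, of the 10 genes with 95% intervals in the 4 sex and stage pairs, 2 arrays against 2; no value has a limma adjusted p under 0.05. The intervals of Hspa1a and Hspa1b lie above 0 in both E12.5 panels and cross 0 in both E14.5 panels.

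Probe sets of Hsph1, Hsp90aa1 and Dnajb1 disagreed on the ovary stages. Between ovary stages the second Hsph1 probe set gave 1.43 (limma adjusted p = 0.0497 over probe sets) where the tested set gave 0.15, and its E12.5 arrays read 643, 182, 107 and 452 and its E14.5 arrays 441, 1045, 853 and 797. Other Hsp90aa1 sets gave 1.27 and 0.71 where the tested set gave 0.15, and the second Dnajb1 set gave 0.90 where the tested set gave 0.22. The log2 ratio of the other to the tested Hsph1 set was -3.48 to -1.33 in the 3 E12.5 arrays of high 3'/5' ratio and -1.31 to -0.46 in the other 13. For Hsp90aa1 these were -2.07 to -0.37 and -0.68 to 0.17, and for Dnajb1 -2.16 to -1.71 and -1.62 to -0.59. For Hspa1b they were -1.88 to -1.41 and -1.87 to -1.39, so this gene's sets kept their ratio. The 2 lowest values of the other Hsph1 set (107 and 182) belong to arrays of high 3'/5' ratio, whose part in the disagreement was not tested.

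**Figure D5:**
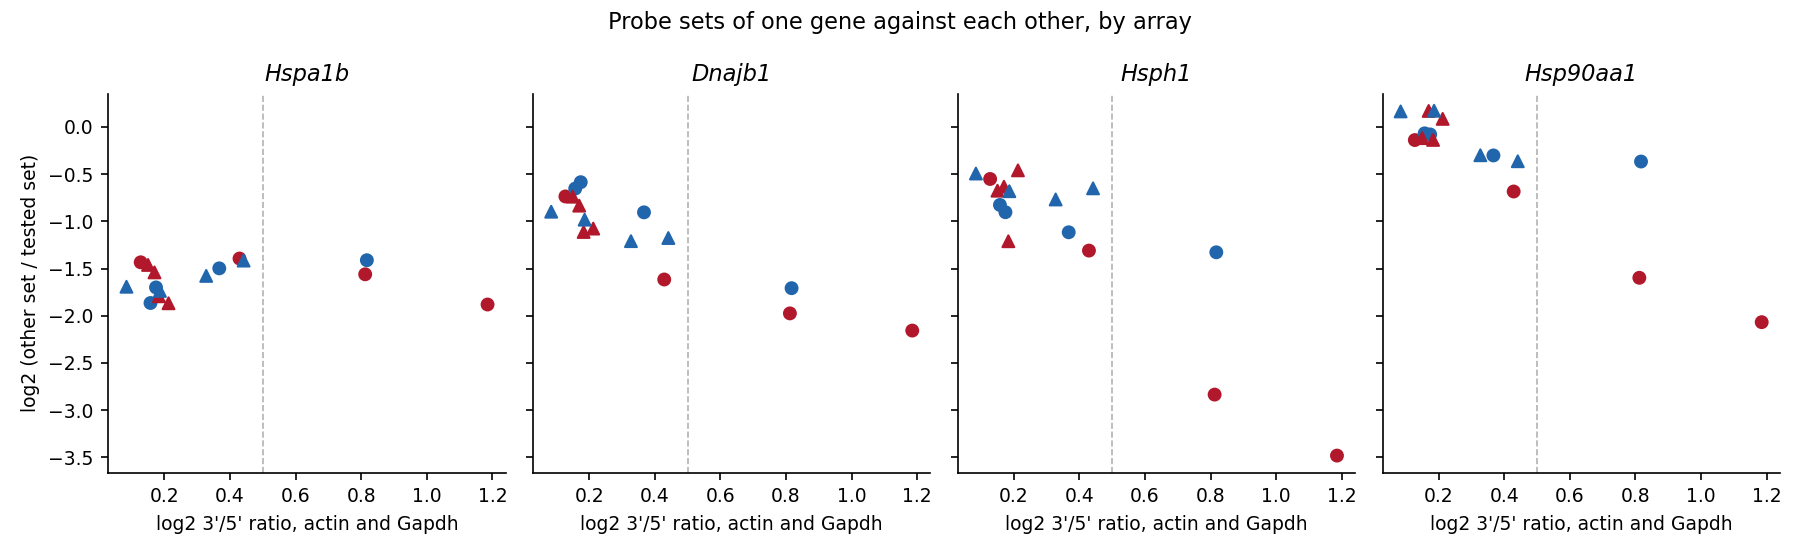
Log2 ratio of another probe set to the tested probe set of 4 genes against the log2 3'/5' ratio of actin and Gapdh, 1 point per array (red ovary, blue testis, circles E12.5, triangles E14.5); the dashed line marks 0.5, above which 3 arrays lie. In those 3 arrays the Hsph1 ratio is -3.48 to -1.33, and the Hspa1b ratio stays between -1.88 and -1.41.

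Of 28 other cytosolic chaperones and cochaperones tested, 3 rose and 1 fell between testis stages, with a median of 0.22 beside 0.02 for all genes. The count that rose is near the share of all genes, of which 10.4% rose and 7.65% fell, and the same shares stand beside each testis count of the lists that follow. Between ovary stages 9.43% of all genes rose and 13.9% fell. Hspa4l, a relative of Hsph1, rose from 19.6 to 93.7 in testis (2.09, SE 0.20, limma adjusted p = 1.776e-05) and from 20.7 to 111 in ovary (2.23, adjusted p = 8.593e-06). Stip1, which links HSP70 to HSP90, rose in testis from 619.5 to 1063 (0.80, adjusted p = 0.0156), and Hspa4 from 2220 to 2993 (0.44, adjusted p = 0.0196). Ahsa2 fell there by 0.70. In ovary Hspa4l and Cacybp rose and Dnajb5 fell.

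Between the sexes at E14.5, 7.44% of all genes were higher and 5.48% lower in testis. Of the 28 other cytosolic chaperones and cochaperones 2 were higher, near that share, and 0 lower. These were Hspa4 (0.72) and Fkbp5 (0.47), an HSP90-bound immunophilin. At E12.5 1 of the 28 was lower in testis, near the 3.67% of all genes. This was Bag3, an HSP70 partner that heat shock factors are known to drive (126 against 257 in ovary, -1.005, limma adjusted p = 0.0102). Its difference between testis stages was 0.22 (adjusted p = 0.438).

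Of 5 small heat shock proteins tested, Cryab rose in both sexes, by 0.92 in testis and 1.44 in ovary, and Hspb8 fell in ovary by 1.20. Of the heat shock factor list 2 genes were tested. Hsf2bp, known from meiotic recombination, rose in both sexes (1.73 in testis and 3.25 in ovary). Of the 23 meiotic prophase genes 10 rose in testis and all 23 in ovary. Of 8 subunits of the cytosolic TRiC chaperonin, Cct7 rose in testis (0.37) and was higher in testis than ovary at E14.5 (0.28), and the other 7 did not pass.

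Of 12 mitochondrial chaperones and proteases, Trap1 (0.67), Lonp1 (0.59) and Dnaja3 (0.54) rose between testis stages beside Hspd1, and Trap1 and Lonp1 were higher in testis than ovary at E14.5. Of 24 genes of the endoplasmic reticulum and the unfolded protein response, 1 rose and 1 fell in testis (Sel1l and Trib3). In ovary 6 rose and 3 fell, among them Dnajb11 (0.95), a cochaperone of Hspa5, and Asns, which fell by 0.89. Hspa5 itself was called in neither sex.

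Immediate early genes and hypoxia response genes were read as lists that tissue handling is known to move. Of 20 immediate early genes tested, 4 rose between testis stages (Ier3 by 1.36, Jun by 0.62, Btg2 by 1.17 and Fosl2 by 0.45) and none fell, beside 10.4% and 7.65% of all genes. Their summed intensity over 24 genes was 4665 to 5230 in testis at E12.5 and 5846 to 6577 at E14.5, with no overlap, and 5095 to 6959 and 4800 to 6043 in ovary. At E14.5, 4 were higher in testis than ovary (Ccn2 by 1.21, Nr4a1 by 1.10, Ccn1 by 0.84 and Klf4 by 0.80) and 1 was lower (Gadd45b), beside 7.44% and 5.48% of all genes. At E12.5, 1 was higher and 0 lower in testis, beside 1.83% and 3.67%. Between ovary stages 1 of the 20 rose and 3 fell, beside 9.43% and 13.9%. The difference between stage changes was called lower for 1, beside 6.57%, with a median of -0.42 (all genes -0.10). Of 14 hypoxia response genes, Ddit4 rose and Vegfa and Egln3 fell between testis stages, and the sum over 15 genes lay between 9640 and 11500 in all sexes and stages. The part of handling in the Hspa1a and Hspa1b difference was not tested.

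Between knock-out and wild type no gene of the chaperone, heat shock factor, endoplasmic reticulum, immediate early and hypoxia lists was called in any of the 4 pairs. Over all pairs together Egln3 was higher in knock-out (0.51, limma adjusted p = 0.0233). In limma 0 to 4 genes of such a list had an unadjusted p under 0.05 in a pair. The cell type marker lists are not counted here, and some of them held called genes.

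The genes whose pattern over the 16 arrays was most like that of Hspa1b were Hspa1a (Pearson r 0.97), Ddx58 (0.95), Exd1 (0.95), Alas1 (0.95) and Fdft1 (0.94), with the 4 testis arrays of E14.5 highest in each. Ddx58 read 73.8, 116, 94.9 and 121 there against 17.0 to 41.2 elsewhere. Exd1 read 120, 162, 150.4 and 193 against 11.9 to 52.6. For Hspa2 they were Rab12 (0.88), Stambpl1 (0.88), B3gnt8 (0.86), Gpr153 (0.85) and Anxa5 (0.85). These correlations describe arrays that share their groups and are given without a test.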

How the data were processed

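The authors deposited linear intensities per probe set, made with MAS5, the one tool in the submitters' processing notes. Its scaling target is not given in the sources used here. Values stayed on the deposited scale, with quantile normalization as an alternative. Values entered as log2(intensity + 4). The 64 control probe sets were left out. The filter kept 25620 probe sets that exceeded an array's median in 2 or more arrays, and for each gene the probe set of highest mean stood for it. Platform symbols were updated through Entrez numbers for 34754 probe sets, 932 had several symbols and 9211 none.

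Group means of all 16 arrays were fitted in limma 3.58.1 (R 4.3.3) with an intensity trend of the variance (8 residual and 5.29 prior degrees of freedom). Two-sided p-values were adjusted over 12336 genes (Benjamini-Hochberg), with a threshold of 0.05. Stage and sex contrasts averaged the genotypes. The members, lists, tests and alternatives were chosen with earlier results of these data known. All members were named with every probe set, up to 4 genes per list and comparison by smallest p, and the 5 genes most like Hspa1b and Hspa2 by Pearson correlation. The code was tested on simulated data. Python 3.11.15 read the promoters.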

Additional observations from a re-analysis of the deposited data

Results flagged for a closer look

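The change between E12.5 and E14.5 differed between the sexes for 3 of the 10 genes by the limma test of that difference. The log2 stage change in ovary minus that in testis was -2.35 for Hspa1a, -2.41 for Hspa1b and -0.65 for Hsph1. For Hspa1a and Hspa1b the stage difference was 2.53 and 2.49 in testis and 0.19 and 0.08 in ovary. For Hsph1 the call rests on its brighter probe set, since the other set gave 0.25 (adjusted p = 0.826 over probe sets). With wild-type arrays alone the values were -2.27, -2.51 and -0.88, none called (limma adjusted p = 0.05675, 0.0697 and 0.146). With knock-out arrays alone they were -2.42, -2.31 and -0.42, and Hspa1a alone was called (limma adjusted p = 0.0173, 0.0527 and 0.400).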

How the results depend on the processing

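Hspa1a and Hspa1b stayed called between testis stages and between the sexes at E14.5 in each of 34 alternatives, with differences of 1.88 to 3.10 and 1.87 to 3.11 between stages and of 1.63 to 2.26 and 1.72 to 2.25 between sexes. With 1 value per gene none of the 11 called gene values changed sign in these alternatives. In the test of every probe set, the second Hsph1 set reversed the difference between stage changes (0.25 against -0.65). Hsp90aa1 lost its call between testis stages in 17 of 34 alternatives (adjusted p up to 0.573), Hspd1 in 3, Hsph1 and Hspb1 in 1 each. The difference between stage changes lost its call in 1 of 33 alternatives for Hspa1a, 3 for Hspa1b and 23 for Hsph1 (adjusted p up to 0.702). Over all genes the number called between testis stages ran from 498 with knock-out arrays alone to 3687 with array weights, beside 2223. It ran from 538 to 4173 between ovary stages (2874), from 473 to 2424 and from 65 to 3149 between the sexes at E14.5 (1594) and E12.5 (679), and from 19 to 2994 for the difference between stage changes (1271).

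Member counts moved as follows, each with the share of all genes called in the same fit. Between testis stages (6) knock-out arrays alone called 2 (4.04%). Between ovary stages (0) the mean of probe sets (23.2%) and the test of every probe set (16.7% of probe sets) each called 4 (Dnajb1, Hsp90aa1, Hspb1 and Hsph1), and leaving out the E12.5 arrays of high 3'/5' ratio called 2 (10.6%). The difference between stage changes (3) gave 1 without those arrays (1.39%), 0 with wild-type arrays alone (0.154%) and 1 with knock-out arrays alone (1.31%). Array weights called 1 (Hspa1b) between knock-out and wild-type testis E12.5 (2.96%). Leaving out each array in turn gave 4 to 6 between testis stages (8.79% to 20.5%), 2 to 3 and 0 to 2 between the sexes at E14.5 (7.26% to 16.1%) and E12.5 (0.527% to 25.5%), 2 to 4 for the difference between stage changes (2.73% to 24.3%), and 0 for ovary stages (12.9% to 33.8%) and each knock-out comparison (at most 1.99%). A fit of only the compared arrays adds nothing where all arrays already enter.

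Replicate numbers were not used as pairs in the main fit. Correlations of replicate differences between 28 pairs of groups ran from -0.66 to 0.58, with 7 above 0.1 and 7 below -0.1. The highest was between wild-type and knock-out testis at E14.5, where replicate 2 of each held RNA of the other sex (22.7% and 16.4%). Whether replicates of a number shared handling was not tested. With the replicate number as a block the counts were 6 (18% of all genes), 0 (22.2%), 2 (13.1%) and 0 (4.2%) for stages in testis and ovary and sexes at E14.5 and E12.5, and 2 (9.94%) for the difference between stage changes, where Hsph1 lost its call (-0.65, adjusted p = 0.0516). With 2 arrays a group, small differences were not detectable.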
